A study of Mus musculus with 6 samples.

Results

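Nuclear receptors were followed in mouse liver as 33 genes listed by symbol, and 32 of them were measured among the 18193 genes of the array table. Among probe sets annotated to a symbol alone, the one whose mean over the 6 arrays was highest stood for the gene, a choice that ignored genotype. Nr1h2, the second liver X receptor gene, was not analysed here.

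Livers of Mir137-/- mice and of Mir137+/+ mice were taken at postnatal day 14, and RNA of 1 mouse went on each of 3 arrays per genotype. The Mir137-/- mice lacked miR-137 in every tissue, because Cre recombinase had removed the exons that hold it in embryonic stem cells and the deletion was carried in the germline. The E14 stem cells came from another strain than the C57BL/6 mice to which the founders were crossed, so both genotypes, born to Mir137+/- parents, had a mixed background. All mice were kept in standard housing and received no treatment. The methods of the study describe the animals as male, but Mir137+/+ replicates 2 and 3 read as female, as given below. A difference in liver can thus include the loss of miR-137 in brain or any other tissue. Values are deposited log2 levels of a whole-genome mouse array, and each difference is in log2 units, with the Mir137+/+ mean subtracted from the Mir137-/- mean. Nothing in these arrays separates fewer cells of a type from less RNA per cell.

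Nuclear receptors are transcription factors, most of which bind a small lipophilic ligand such as a steroid, a bile acid, an oxysterol, a retinoid or a fatty acid. Many of them pair with a retinoid X receptor and sit on repeats of a short DNA core, where they recruit coactivators or corepressors. In liver they are best known for setting bile acid synthesis, lipid and glucose handling, and the enzymes that clear drugs and hormones, and some of them (the NR4A group, SHP) lack a classical ligand.

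The sequence absent from the knockout is shown first, since it was the target of the deletion. Mature miR-137 sequences are from RefSeq on GRCm38.p6, on the plus strand at chr3:118433901-118433923 for the 3p arm and chr3:118433865-118433887 for the 5p arm, with the seed (bases 2 to 8) in capitals.
miR-137-3p: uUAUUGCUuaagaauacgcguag
miR-137-5p: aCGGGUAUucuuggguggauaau

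The start regions of Nr0b2 and Nr1h4 are shown because these genes encode the small heterodimer partner SHP and the bile acid receptor FXR, which act in a shared feedback loop and moved in opposite directions here. The 250 bases before each start site are from RefSeq on GRCm38.p6, at chr4:133553126-133553375 on the plus strand for Nr0b2 and chr10:89506659-89506908 on the minus strand for Nr1h4. Both are written along the gene, and capitals mark every match to a searched motif.
Nr0b2: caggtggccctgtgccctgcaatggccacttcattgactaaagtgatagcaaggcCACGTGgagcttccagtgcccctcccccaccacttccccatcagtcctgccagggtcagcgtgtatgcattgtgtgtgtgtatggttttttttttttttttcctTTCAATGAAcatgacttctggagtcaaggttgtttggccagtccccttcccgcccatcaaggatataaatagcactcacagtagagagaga
Nr1h4: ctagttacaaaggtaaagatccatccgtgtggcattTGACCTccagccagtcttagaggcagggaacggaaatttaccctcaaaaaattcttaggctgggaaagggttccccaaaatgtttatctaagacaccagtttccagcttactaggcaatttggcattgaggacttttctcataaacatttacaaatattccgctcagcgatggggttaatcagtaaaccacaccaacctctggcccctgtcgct

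Motifs were searched on both strands of these 250 bases in the 31 listed genes that had a promoter entry, at the start site listed first for each gene. The core hexamer of nuclear receptor elements, AGGTCA, occurred in 3 of them (Nr1h4, Nr5a2 and Rarg) and in 13.8% of all 27025 promoters. In Nr1h4 it lay on the strand opposite to the gene, shown as TGACCT, from position -214 counted back from the start site. The E-box CACGTG, read by clock proteins, occurred in Nr0b2 from position -195 and in Nr1i3, and in 6.05% of promoters. The STAT5 element TTCNNNGAA occurred in Nr0b2 from position -91 and in Rarb, and in 7.18% of promoters, and a further match lay at position -188 of the second start site of Esr1. None of the 31 held the NR4A element AAAGGTCA (1.31% of promoters), the cAMP response element TGACGTCA (1.62%), the extended NR5A2 element TCAAGGTCA (0.37%), or the direct and inverted repeats AGGTCANAGGTCA (0.04%), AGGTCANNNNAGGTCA (0.01%) and AGGTCANTGACCT (0.01%). The NR4A and NR5A2 elements and the repeats contain AGGTCA, so each would also count as a match to it. These are matches of letters in a short window and not binding sites.

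Some arrays stood apart in ways that touch the comparison. Xist, which silences the second X chromosome of females, read 10.91 and 10.81 on Mir137+/+ replicates 2 and 3. It read between 3.66 and 4.24 on the other 4 arrays. The Y-linked Kdm5d read 1.77 and 2.04 on the arrays with high Xist, against 6.49 to 7.23 on the others. Both arrays with high Xist thus read as female, against the description in the methods. No Mir137-/- array did, so sex was unbalanced between the genotypes. The mean of 10 skeletal muscle markers lay 4.70 above its Mir137+/+ mean on Mir137-/- replicate 1, and 0.23 and 0.09 above it on the other knockout arrays. Pancreas markers (8 of 10 measured) averaged 8.42 on Mir137-/- replicate 2 and 7.18 on Mir137+/+ replicate 2, and the remaining arrays ranged from 4.43 to 4.66. Hepatocyte markers (7 of 10 measured) averaged 13.14 to 13.19 in Mir137-/- and 13.18 to 13.20 in Mir137+/+, so the tissue label held. The B cell list fell in 7 of 9 genes and the neutrophil list in 7 of 10, with list means of 4.96 to 5.15 against 5.81 to 6.03 and of 5.61 to 6.05 against 6.83 to 7.32. Among the genes named by rule, Vpreb1 differed by -2.08, Vpreb3 by -1.21, Igll1 by -1.32 and Ebf1 by -0.81 on the B cell list, and Prtn3 by -1.29, Ngp by -2.03, S100a8 by -1.57 and S100a9 by -1.71 on the neutrophil list. Ms4a1 and Pax5 of the B cell list, named after their values were seen, went the other way without being called. Ms4a1 differed by 0.32 (adjusted p = 0.0436, separate groups) and Pax5 by 0.16 (adjusted p = 0.525). Igll1 and S100a8 were read from probe sets that can detect several transcripts, and without such probe sets Igll1 differed by 0.03 and S100a8 had no value. No gene was called on the Kupffer, endothelial, cholangiocyte and erythroid lists, and 1 of 10 was called on the stellate list (Lrat). The Kupffer list mean was 9.217 to 9.268 in Mir137-/- and 9.13 to 9.211 in Mir137+/+. The endothelial list mean was 8.738 to 8.804 against 8.596 to 8.705. The cholangiocyte and erythroid means overlapped. Kdr (endothelial, 0.48) and Lum (stellate, -0.51), named after their values were seen, passed the p threshold but not the fold. The part of other cell types, sex or carried-over tissue in the receptor results was not tested beyond leaving out arrays or adding sex. With sex added, the genotype difference rested on Mir137+/+ replicate 1 alone, so sex and genotype could not be fully told apart. The fits without the Xist arrays and without the pancreas arrays are given beside each called receptor. Dropping Mir137-/- replicate 1, which carried the muscle signal, kept the calls of Nr0b2 (0.745), Nr1h4 (-0.70) and Esr1 (-0.85). Nr4a2 lost its call there (0.66). Of the 33 called list genes named by rule in the text, 9 lost the call without the arrays with pancreas transcripts. More of them lost it without the arrays with Xist, which leaves 1 Mir137+/+ array. Calls over all genes became fewer in both fits as well, so these losses cannot be read as particular to the named genes.

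Of the 32 measured receptors, 2 rose and 2 fell in Mir137-/- liver. Calls needed a fold above 1.5 and a p below 0.05 after Benjamini-Hochberg adjustment over 18193 genes, and 2.34% of all genes rose and 3.34% fell by that rule. Nr0b2 and Nr4a2 were the receptors that rose, and Nr1h4 and Esr1 were those that fell. With the fold rule dropped, 6 receptors passed against 12% of all genes, the additional ones being Nr3c2 and Nr4a1, both higher. In 16 receptors the 3 values of one genotype lay wholly outside those of the other, 5 with the knockout higher and 11 with it lower, whereas 32.3% of all genes did so. The median difference of the 32 was -0.08, beside 0.00 over all genes, with 13 positive and 19 negative differences between -0.78 and 0.78. With 2 calls in each direction, the counts are too few to set the family apart from that background.

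**Figure D1:**
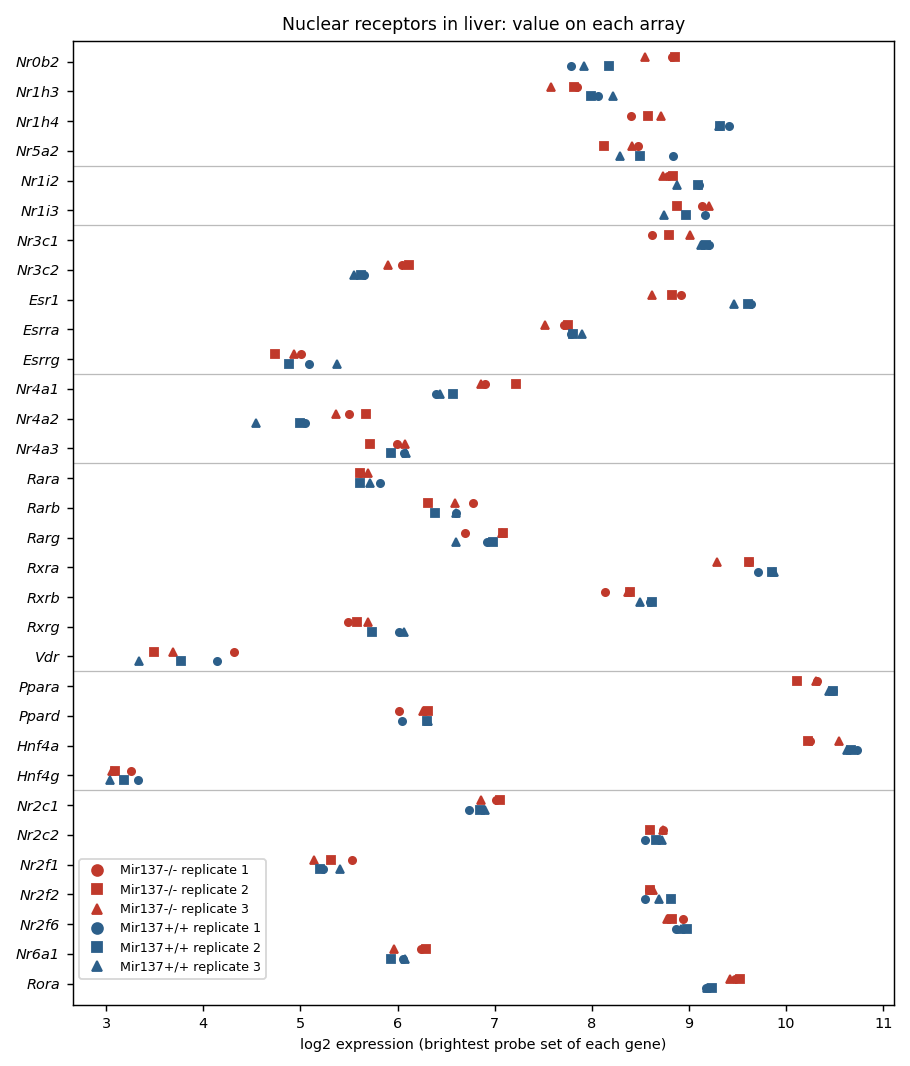
Log2 level of each of the 32 receptors (rows, in blocks by role) on each of the 6 arrays, with Mir137-/- in red, Mir137+/+ in blue and the marker shape giving the replicate. The red and blue points of Nr0b2, Nr1h4, Esr1 and Nr4a2 do not overlap, and 12 of the 28 receptors that were not called have separate groups as well.

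**Figure D2:**
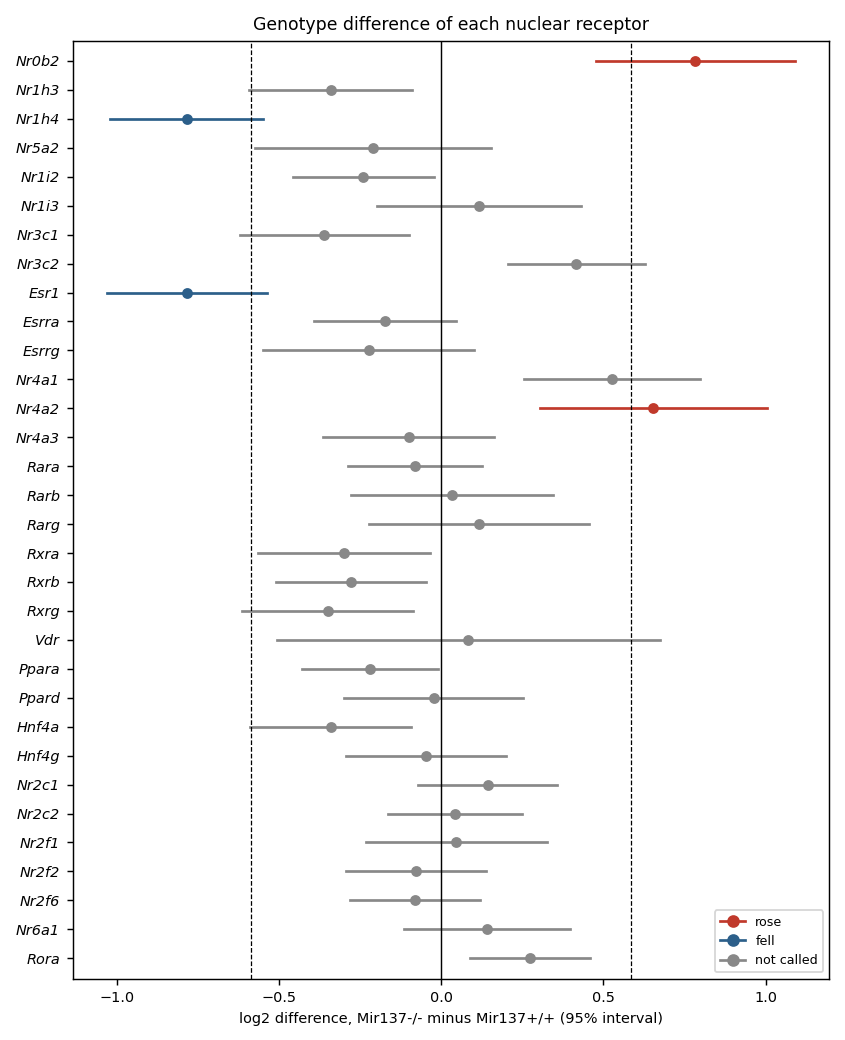
Difference of each receptor, Mir137-/- minus Mir137+/+ on the log2 scale, with its 95% interval from the limma fit, and dashed lines at the fold of 1.5. Nr0b2 and Nr4a2 lie at 0.78 and 0.65, Nr1h4 and Esr1 at -0.78, and 21 of the 28 receptors not called have an interval inside the dashed lines.

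The bile acid receptor and its partner moved in opposite directions. Nr1h4 (FXR), which binds bile acids, read 8.40, 8.58 and 8.71 in Mir137-/- and 9.41, 9.32 and 9.31 in Mir137+/+. Every knockout value lay below every wild-type value. The difference was -0.78 (SE 0.10, 95% interval -1.02 to -0.55, adjusted p = 0.00310), a 1.72-fold lower level. Nr0b2 (SHP), an orphan receptor without a DNA-binding domain that FXR induces and that represses bile acid synthesis, read 8.82, 8.86 and 8.55 in Mir137-/- and 7.78, 8.18 and 7.92 in Mir137+/+. The groups did not overlap here either, with the knockout higher. The difference was 0.78 (SE 0.13, 95% interval 0.48 to 1.09, adjusted p = 0.00950), a 1.72-fold higher level. Each of these genes had 1 probe set, so no further reading could be set beside it. Without the arrays with Xist, which leaves 1 Mir137+/+ array, the differences were -0.85 for Nr1h4 (adjusted p = 0.113) and 0.96 for Nr0b2 (adjusted p = 0.0953), and neither was called. Without the arrays with pancreas transcripts Nr1h4 missed the threshold at -0.81 (adjusted p = 0.0508), and Nr0b2 stayed called at 0.84 (adjusted p = 0.0436). Under the methods' test, which takes each gene's spread alone, Nr0b2 also missed the threshold (adjusted p = 0.0745).

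The other receptors of bile acids and sterols were not called. Nr1h3 (liver X receptor alpha), which responds to oxysterols, went from 8.09 ± 0.12 in Mir137+/+ to 7.75 ± 0.15 in Mir137-/- (SD, n = 3), with all knockout values below the wild-type ones (adjusted p = 0.0856). Nr5a2 (LRH-1), which drives Cyp7a1 and is held down by SHP, was at 8.54 ± 0.28 and 8.33 ± 0.19 in the same order, and the groups overlapped (adjusted p = 0.452).

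Genes that FXR and SHP control moved both ways, with 2 of 11 up and 1 down and a median of 0.13. Slc51b, a subunit of the basolateral bile acid exporter and an FXR target, rose by 0.78 (adjusted p = 0.00524), and Cyp7b1, the hydroxylase of the alternative synthesis route, rose by 0.83 (adjusted p = 0.0217). Baat, which joins bile acids to taurine or glycine, fell by 0.66 (adjusted p = 0.0133), as read from a probe set that can detect several transcripts. Baat differed by -0.20 without such probe sets (adjusted p = 0.390) and by -0.43 with all probe sets averaged, and was called in neither case. With all probe sets averaged Cyp7b1 differed by 0.52 and was not called either. Cyp7a1, the rate-limiting enzyme of bile acid synthesis and named after its values were seen, read 8.09, 7.24 and 7.88 in Mir137-/- and 9.48, 8.55 and 8.16 in Mir137+/+. Its groups were separate but its difference of -0.99 missed the threshold (adjusted p = 0.106). Abcb11, the canalicular bile salt pump and a direct FXR target, also named after its values were seen, was at 9.97 ± 0.04 in knockout and 10.05 ± 0.10 in wild-type liver (SD, n = 3; adjusted p = 0.624). Among 11 genes that liver X receptors control, 1 fell and none rose, with a median of -0.11. That gene was Fasn, the fatty acid synthase, which fell by 1.22 (adjusted p = 0.000996).

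The xenobiotic receptors themselves were not called. Nr1i2 (pregnane X receptor), the sensor of drugs and steroids, was at 9.02 ± 0.12 in wild-type and 8.78 ± 0.06 in knockout liver (SD, n = 3), with separate groups and a difference of -0.24 (adjusted p = 0.150). Nr1i3 (constitutive androstane receptor) was at 8.96 ± 0.21 and 9.07 ± 0.17 with overlapping groups, and the 95% interval of its difference ran from -0.20 to 0.43 (adjusted p = 0.643).

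Of 16 genes that these receptors control, 4 fell and 2 rose, with a median of -0.25. Cyp2b10, the usual read-out of the constitutive androstane receptor, read 5.87, 5.89 and 5.28 in Mir137-/- against 7.58, 7.40 and 7.08 in Mir137+/+. It fell by 1.67 (adjusted p = 0.00191), and no values overlapped. Cyp2c55, a further P450, fell by 1.48 (adjusted p = 0.00145). Aldh1a1, a retinaldehyde dehydrogenase also on the retinoid list, fell by 1.75 (adjusted p = 0.000386). Abcc3, a basolateral exporter of conjugates, rose by 0.69 (adjusted p = 0.0315). Named after their values were seen, Cyp2b13 fell by 1.28 and the glutathione transferase Gsta2, on a multi-transcript probe set, rose by 0.86, while Cyp3a11, the main pregnane X receptor target, differed by -0.15 (adjusted p = 0.255). Probe sets of such P450 and transferase families can share signal between close paralogs.

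Esr1, the estrogen receptor alpha of hepatocytes, fell. It read 8.92, 8.82 and 8.62 in Mir137-/- and 9.64, 9.61 and 9.46 in Mir137+/+. The knockout values were all lower, and the difference was -0.78 (SE 0.11, 95% interval -1.03 to -0.54, adjusted p = 0.00374), or 1.72-fold. A second Esr1 probe set read 6.90, 6.74 and 6.78 against 7.69, 7.98 and 7.46 and fell by 0.90 (adjusted p = 0.00657 over 45037 probe sets, of which 1.94% rose and 2.58% fell). The remaining Esr1 probe set had a difference of -0.40 with overlapping groups (adjusted p = 0.192). The arrays with high Xist read 9.61 and 9.46 for Esr1, both below the remaining wild-type array at 9.64. Without these arrays the difference was -0.85 (adjusted p = 0.111), and without the arrays with pancreas transcripts it was -0.78 (adjusted p = 0.0592), so the call was lost in both cases.

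The corticosteroid receptors had differences of opposite sign, and neither was called. Nr3c2, the mineralocorticoid receptor, read 6.05, 6.12 and 5.90 in Mir137-/- and 5.65, 5.62 and 5.55 in Mir137+/+. Its groups were separate, and its difference of 0.42 (SE 0.09, adjusted p = 0.0250) passed the p threshold but not the fold of 1.5. Nr3c1, the glucocorticoid receptor, was at 9.17 ± 0.05 in wild-type and 8.81 ± 0.20 in knockout liver (SD, n = 3), a difference of -0.36 with separate groups (adjusted p = 0.0791). Of the 5 other probe sets of Nr3c1, 4 went the same way and their differences ranged from -0.47 to 0.26. Esrra and Esrrg, the estrogen-related receptors of oxidative metabolism, differed by -0.17 (7.83 ± 0.06 to 7.66 ± 0.12, adjusted p = 0.292) and -0.22 (5.12 ± 0.25 to 4.89 ± 0.14, adjusted p = 0.365), with Esrra alone separate.

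Glucocorticoid-responsive genes split, with 2 of 15 up, 3 down and a median of -0.20. Lcn2, an acute-phase protein that neutrophils also make, fell by 1.98 (adjusted p = 0.000866) on its single, multi-transcript probe set, beside the lower neutrophil list given above. Fkbp5, a chaperone of steroid receptors, fell by 0.60 (adjusted p = 0.0122), and was not called after quantile normalization (-0.565) or with all probe sets averaged (-0.47). Tsc22d3 (GILZ) fell by 0.97 (adjusted p = 0.00128) from a probe set that can read several transcripts, and without such probe sets it differed by 0.07. Igfbp1, a binding protein of insulin-like growth factors, rose by 0.72 (adjusted p = 0.00198), and the kinase Sgk1, named after its values were seen, rose by 0.91 (adjusted p = 0.0141). On the list of genes that estrogen-related receptors control, 1 of 9 rose and none fell, with a median of -0.06. The gene was Pdk4, described with the PPAR genes.

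Of the immediate early NR4A receptors, orphans induced within minutes by cAMP and stress signals, 1 of 3 was called. Nr4a2 (Nurr1) read 5.50, 5.67 and 5.37 in Mir137-/- and 5.05, 4.99 and 4.54 in Mir137+/+. The groups were separate, and the difference was 0.65 (SE 0.15, 95% interval 0.30 to 1.0, adjusted p = 0.0306), a 1.57-fold higher level. Its brightest probe set is of the kind that can read several transcripts, and the 5 others differed by -0.05 to 1.18, with 4 of the same sign. One of them was called on its own, at 3.77, 4.07 and 3.77 against 2.52, 2.63 and 2.92 (difference 1.18, adjusted p = 0.00191 over 45037 probe sets). All of these readings of that probe set lay below the array median of 4.90. The Mir137+/+ mean of the brightest probe set, 4.86, was also below it, and each of the other Nr4a2 probe sets averaged below it. The call of Nr4a2 was lost when Mir137-/- replicate 1 or 2 was left out, at 0.66 and 0.575 with adjusted p of 0.0728 and 0.0857. It was also lost when Mir137+/+ replicate 2 or 3 was left out, at 0.72 and 0.49 with adjusted p of 0.0634 and 0.0676. The same held without the arrays with Xist (0.46, adjusted p = 0.321), without those with pancreas transcripts (0.64, adjusted p = 0.146), and when multi-transcript probe sets were left out (0.30, adjusted p = 0.359).

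Nr4a1 (Nur77) read 6.90, 7.22 and 6.86 in Mir137-/- and 6.39, 6.57 and 6.44 in Mir137+/+. The knockout values were all higher, and the difference of 0.53 (SE 0.12, adjusted p = 0.0269) did not reach the fold of 1.5. With Mir137-/- replicate 3 left out it was called, at 0.59. Nr4a3 (Nor1) had overlapping groups, at 6.03 ± 0.09 in wild-type and 5.93 ± 0.19 in knockout liver (SD, n = 3; adjusted p = 0.637). In the related list of immediate early, clock and vitamin D genes, 2 of 9 fell, none rose and the median was 0.03. Egr1, an immediate early factor, read 8.21, 8.29 and 8.95 against 10.75, 10.03 and 9.52 and fell by 1.62 (adjusted p = 0.0166), the opposite sign to Nr4a1 and Nr4a2. With trend and robust variance Egr1 was not called (adjusted p = 0.0740). Cry1, a repressor of the clock, fell by 0.63 (adjusted p = 0.00958) on its single, multi-transcript probe set.

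**Figure D3:**
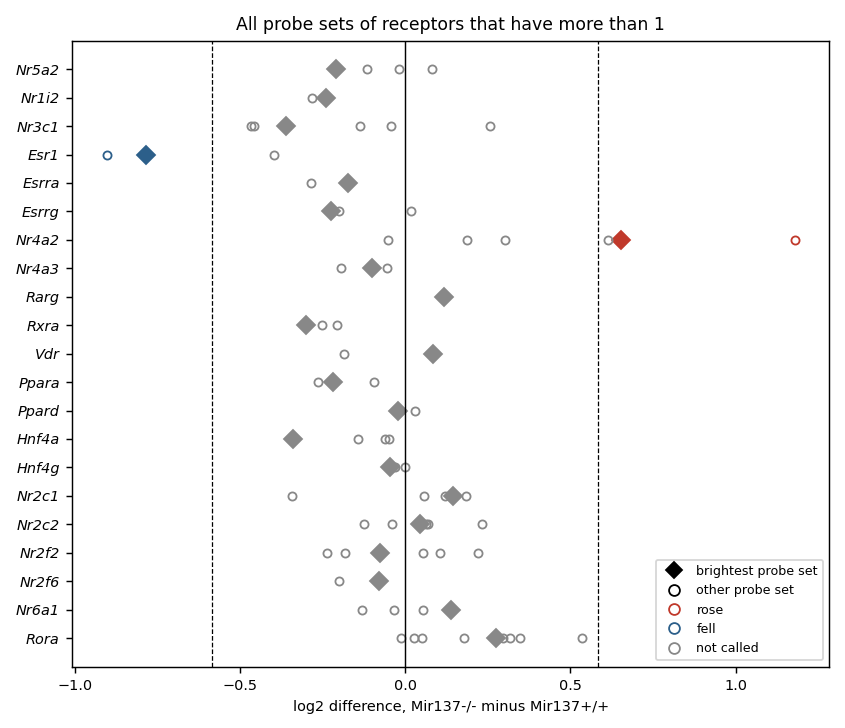
Difference of every probe set of the 21 receptors with more than 1, Mir137-/- minus Mir137+/+ on the log2 scale, with a diamond for the brightest probe set and circles for the others. The 3 probe sets of Esr1 all lie below 0, those of Nr4a2 spread from -0.05 to 1.18, and 44 of the 60 other probe sets have the sign of the brightest.

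None of the 7 retinoid, retinoid X and vitamin D receptors was called, and their differences lay between -0.35 and 0.12. The retinoid X receptors, which pair with some of the receptors above, had knockout values below all wild-type values in each, and none was called. Rxra, the main form in liver, was at 9.81 ± 0.09 in wild-type and 9.51 ± 0.19 in knockout liver (SD, n = 3), a difference of -0.30 (adjusted p = 0.141), and both of its other probe sets were lower too (-0.25 and -0.21). Rxrb went from 8.57 ± 0.06 to 8.30 ± 0.14 (difference -0.28, adjusted p = 0.121). Rxrg went from 5.94 ± 0.18 to 5.59 ± 0.11 (difference -0.35, adjusted p = 0.0890). On the array with muscle transcripts Rxrg read 5.49, the lowest of the 6.

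The groups of the retinoic acid receptors overlapped. Rara was at 5.72 ± 0.11 in wild-type and 5.64 ± 0.05 in knockout liver (SD, n = 3; adjusted p = 0.629), Rarb at 6.53 ± 0.13 and 6.56 ± 0.24 (adjusted p = 0.907), and Rarg at 6.83 ± 0.20 and 6.95 ± 0.23 (adjusted p = 0.671). Vdr, the vitamin D receptor, which hepatocytes hardly make, read 4.32, 3.49 and 3.69 against 4.14, 3.77 and 3.34, below the array median in both groups. Its interval from -0.51 to 0.67 was the widest of the 32, so a 1.5-fold increase could not be told from no change at this spread (adjusted p = 0.875). Of 16 genes that handle retinoids or respond to them, 3 fell and 1 rose, with a median of 0.02. Besides Aldh1a1, Rdh10, which oxidises retinol, fell by 0.81 (adjusted p = 0.00172), or by 0.61 without multi-transcript probe sets, and Lrat, the esterifying enzyme of stellate cells, fell by 0.67 (adjusted p = 0.0359). Lrat was not called after quantile normalization (-0.64) or with all probe sets averaged (-0.555). Bco1, which cleaves carotene, rose by 0.67 (adjusted p = 0.0296). The mean of the 10 stellate markers was 9.002 to 9.167 in Mir137-/- and 9.089 to 9.233 in Mir137+/+, with overlapping ranges. The overlap came only from Mir137-/- replicate 1, the array with muscle transcripts. Des, on that list, read 7.64 there against 6.52 and 6.34 on the other knockout arrays. The list without Des was not averaged, so the overlap does not show that the list was unchanged.

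Of the fatty acid and hepatocyte receptors, Ppara, Ppard, Hnf4a and Hnf4g were not called, and their differences lay between -0.34 and -0.02. Ppara, which binds fatty acids and turns on their oxidation, read 10.32, 10.11 and 10.31 in Mir137-/- and 10.48, 10.48 and 10.44 in Mir137+/+. The groups were separate, and the difference was -0.22 (95% interval -0.43 to -0.01, adjusted p = 0.167). Hnf4a, the master factor of hepatocytes, read 10.25, 10.22 and 10.54 against 10.73, 10.67 and 10.63. Its knockout values too all lay below the wild-type ones, with a difference of -0.34 (95% interval -0.59 to -0.09, adjusted p = 0.0817), while its 3 other probe sets differed by -0.14 to -0.05. Ppard, the broadly expressed form, was at 6.22 ± 0.15 in wild-type and 6.19 ± 0.16 in knockout liver (SD, n = 3; adjusted p = 0.929). Hnf4g, the intestinal and renal relative of Hnf4a, was below the array median at 3.18 ± 0.15 and 3.14 ± 0.11 (adjusted p = 0.830).

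Of 18 genes that PPAR-alpha controls, 8 rose and 1 fell, with a median of 0.47. Pdk4, the kinase that shuts off pyruvate oxidation, read 9.72, 9.70 and 9.37 in Mir137-/- and 7.29, 8.01 and 7.44 in Mir137+/+. The groups lay far apart, and it rose by 2.02 (adjusted p = 0.00108). Cidec, a lipid droplet protein, rose by 3.08 (adjusted p = 0.00125). Vnn1, a pantetheinase, rose by 1.24 (adjusted p = 0.000424), and the carnitine acetyltransferase Crat rose by 0.91 (adjusted p = 0.00154). The other genes that rose were Ehhadh (0.60), Plin2 (0.66), Cyp4a14 (0.59) and Acot1 (1.0), and the peroxisomal Pex11a fell by 0.77, all named after their values were seen. Cpt1a and Fgf21, standard targets also named after the fact, differed by 0.33 (adjusted p = 0.0696) and 0.80 (adjusted p = 0.0881). Cidec and Plin2 are also known targets of Pparg, described with the receptors outside the 33.

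Of 15 genes that HNF4-alpha controls, 1 rose and 1 fell, with a median of 0.00. F9 (-0.44), F7 (-0.40) and Otc (-0.32), named after their values were seen, passed the p threshold but not the fold. Their adjusted p was 0.0101, 0.0210 and 0.0387. No uncalled gene of the list passed the p threshold with a higher level. Apoa4, an apolipoprotein induced on fasting, read 12.56, 13.11 and 12.43 in Mir137-/- and 8.88, 9.41 and 9.91 in Mir137+/+. It rose by 3.30 (adjusted p = 0.000610) from a probe set that can read several transcripts, and by 3.86 without such probe sets. Apoc3, its neighbour in the same gene cluster and an inhibitor of lipoprotein lipase, fell by 1.26 (adjusted p = 0.000305).

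None of the 7 other orphan receptors was called. Rora, which activates clock and lipid genes, read 9.47, 9.53 and 9.42 in Mir137-/- and 9.17, 9.24 and 9.19 in Mir137+/+. Its groups were separate and the difference was 0.27 (95% interval 0.09 to 0.46, adjusted p = 0.0668), and 7 of its 8 other probe sets were higher as well, over a range of -0.01 to 0.54. The brightest probe sets of the remaining 6 overlapped between genotypes. Among their other probe sets, Nr2c1 (-0.34), Nr2f2 (-0.18) and Nr2f6 (-0.20) each had one with separate, lower groups. Nr2c1 (0.12) and Nr2c2 (0.23) each had one with separate, higher groups, and none of these was called. Nr2c1 and Nr2c2, the testicular receptors, were at 6.83 ± 0.08 and 8.64 ± 0.09 in Mir137+/+ and at 6.97 ± 0.10 and 8.69 ± 0.08 in Mir137-/- (SD, n = 3; adjusted p = 0.379 and 0.808). The COUP-TF genes Nr2f1 and Nr2f2 differed by 0.05 (5.28 ± 0.11 to 5.33 ± 0.20, adjusted p = 0.850) and -0.08 (8.68 ± 0.13 to 8.61 ± 0.02, adjusted p = 0.661). Their relative Nr2f6 went from 8.92 ± 0.06 to 8.84 ± 0.09 (adjusted p = 0.617), and Nr6a1, a germ cell factor, from 6.02 ± 0.08 to 6.16 ± 0.18 (adjusted p = 0.477).

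The 95% interval of 21 of the 28 receptors not called stayed inside a 1.5-fold change in either direction. For the other 7 (Nr1h3, Nr3c1, Nr3c2, Nr4a1, Hnf4a, Rxrg and Vdr) it reached that size. For 11 of the 28 the interval did not include 0, although the adjusted p missed the threshold or the fold was under 1.5.

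Receptors outside the 33 were set beside them. Among 12 others measured of 15 listed, 2 rose and none fell, with a median of 0.04. Pparg, the receptor of fat storage, read 7.63, 7.80 and 7.39 in Mir137-/- and 6.39, 6.33 and 6.01 in Mir137+/+. It rose by 1.36 (SE 0.14, adjusted p = 0.00145), a larger difference than in any of the 32. Its single probe set is of the kind that can detect several transcripts. Nr1d1 (REV-ERB alpha), a clock repressor, read 6.64, 6.73 and 6.65 against 6.24, 5.51 and 5.59 and rose by 0.89 (adjusted p = 0.0198), the wild-type values being the more spread. Its relative Nr1d2, named after its values were seen, differed by 0.16 (adjusted p = 0.400).

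No coregulator was called. Of the 12 coactivators the median was -0.09, and Ppargc1a, the fasting-induced partner of several receptors and named after its values were seen, read 9.19, 9.30 and 8.28 against 8.69, 8.23 and 8.64 (difference 0.40, adjusted p = 0.386). Its groups overlapped, with Mir137-/- replicate 3 inside the wild-type range. Of the 7 corepressors measured of 9 listed, the median was 0.18. Lcor, a ligand-dependent corepressor named after its values were seen, differed by -0.44 and passed the p threshold but not the fold (adjusted p = 0.0227).

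**Figure D4:**
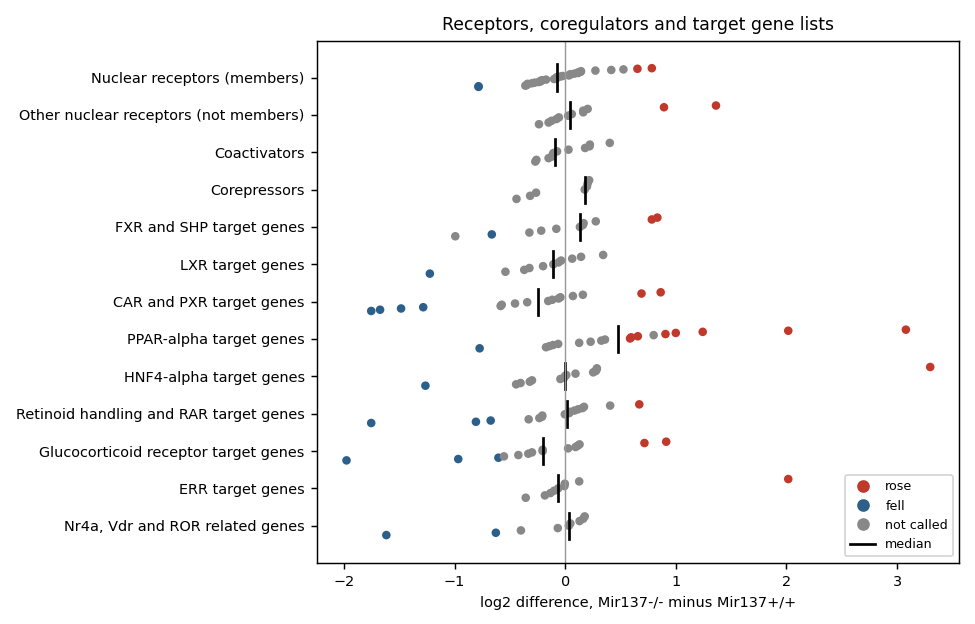
Difference of each measured gene, Mir137-/- minus Mir137+/+ on the log2 scale, for the 32 receptors and 12 lists of other receptors, coregulators and target genes, with red for genes that rose, blue for genes that fell and a black bar at each list's median. The PPAR-alpha list has the median farthest from 0 at 0.47, and no coactivator or corepressor is coloured.

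**Figure D5:**
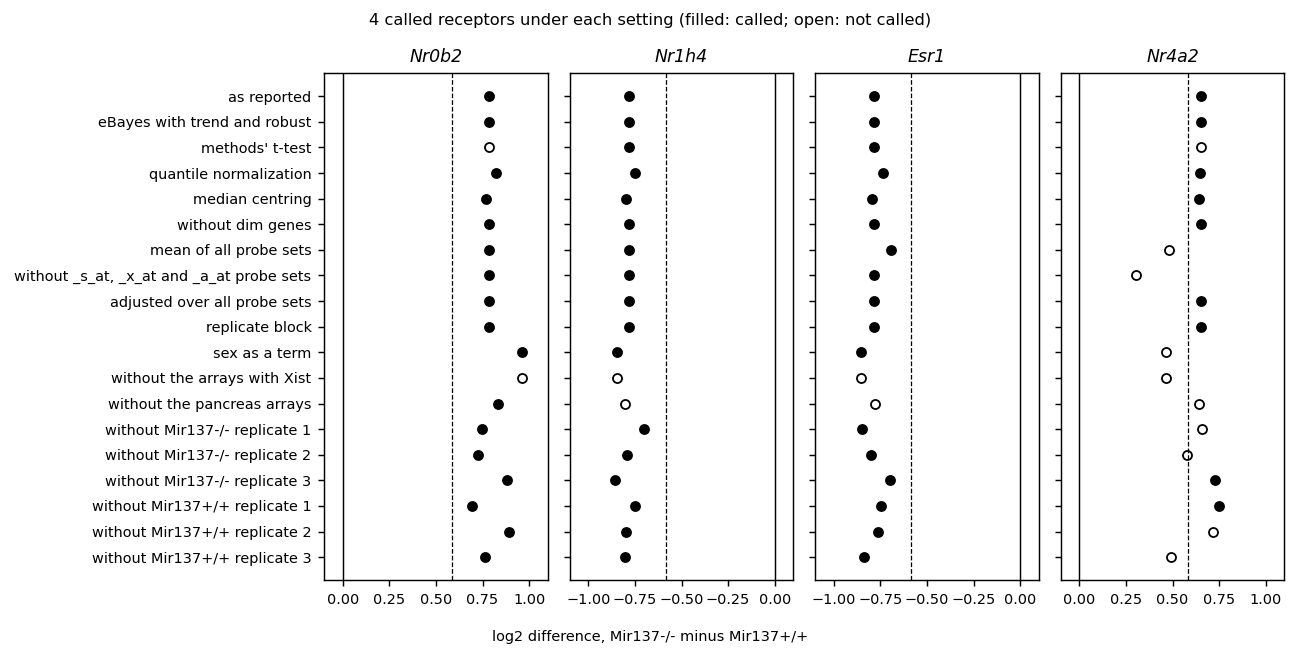
Difference of the 4 called receptors under each setting of the analysis, Mir137-/- minus Mir137+/+ on the log2 scale, filled where called and open where not, with a dashed line at the fold of 1.5. All 4 kept their sign, Nr1h4 and Esr1 were called in all but 2 settings, and Nr4a2 was lost most often.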

How the data were processed

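Groups came from the genotype in the labels. The authors deposited log2 probe set values of 6 arrays. For their making, GCRMA is given in the labels (no version) and RMA followed by baseline-to-mean normalization in the methods of the study. The values were used as deposited. After 64 control probe sets were left out, 45037 remained, of which 34945 had 1 gene symbol in the platform annotation, 932 several and 9160 none. Genotypes were compared in R 4.3.3 by limma 3.58.1, through lmFit on 2 group means, eBayes and Benjamini-Hochberg adjustment over 18193 genes, all p-values two-sided. With 3 against 3 a two-sided exact p cannot go below 0.1. The p-values set each difference against the spread between these animals, with each gene's variance drawn by eBayes toward that of all genes. The small number of arrays limits the precision. Same-numbered arrays deviated together with r of 0.10, 0.23 and 0.03, and the arrays with pancreas transcripts were both replicate 2. These correlations cannot settle whether same-numbered arrays were handled together. The main fit did not pair the arrays, and a replicate block was run as an alternative.

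Members and lists were chosen with earlier results of these data known. All members were named, and of each list up to 4 called genes with the smallest p. Other genes are marked. List counts hold only genes past both thresholds, and most list genes that passed the p threshold alone are not named. Probe sets ending in _s_at, _x_at or _a_at can detect several transcripts and are called multi-transcript. Without them 28 receptors had a value, Nr1h3, Nr1i3, Rara and Rarg having no other kind. List genes without a probe set of their own symbol were not analysed here. Mir137 itself was not analysed here. Alternatives were other variance models, the methods' test, scaling, filters, probe set choices, a replicate block, sex read from Xist, and leaving out arrays. Promoters and miRNAs were taken from RefSeq tables on GRCm38.p6, in which 31 of 33 genes had a promoter.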

Additional observations from a re-analysis of the deposited data

How the results depend on the processing

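Nr0b2, Nr1h4, Esr1 and Nr4a2 kept their sign under every alternative run. The replicate block left 4 calls, 2 higher and 2 lower, and changed no call of a receptor. The methods' test gave 2 calls, 0 of them higher (Nr0b2 and Nr4a2 were lost). Dropping the fold rule gave 4 higher. Averaging all probe sets, leaving out multi-transcript probe sets, and sex as a term each gave 1 higher, with Nr4a2 lost. Only Mir137+/+ arrays had high Xist, so with sex as a term the genotype difference rested on Mir137+/+ replicate 1 alone. Its differences were those found without the arrays with Xist, and its calls are no separate check on sex. Leaving out the arrays with Xist gave 0 calls, 0 higher and 0 lower, from a single Mir137+/+ array assumed to vary like the others. Leaving out the arrays with pancreas transcripts gave 1 call, 1 higher and 0 lower. The fit has fewer samples in both cases, and calls over all 18193 genes became fewer too. As reported, 425 genes rose and 607 fell. The numbers were 228 and 390 without the pancreas arrays, 182 and 284 under the methods' test, and 184 and 259 with sex as a term. Lost calls under these settings, or without the arrays with Xist, cannot be read as particular to the receptors or list genes. Without 1 array at a time, 3 to 5 receptors were called, 1 to 3 higher and 2 lower. Of the 33 called list genes named in the report, the methods' test lost 13, sex as a term 10, the fit without the Xist arrays 24, that without the pancreas arrays 9, averaging all probe sets 5, quantile normalization 2 and trend with robust variance 1, and leaving out 1 array lost 1 to 7. Leaving out multi-transcript probe sets lost 3 (Baat, Tsc22d3 and Igll1) and gave no value for 4 that have no other probe set (Pparg, Lcn2, Cry1 and S100a8).

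The median difference was -0.056 after quantile normalization, -0.135 with sex as a term or without the arrays with Xist, -0.04 without the pancreas arrays, and -0.12 to -0.05 without 1 array. Several differences changed sign, and the cause was not tested. Without multi-transcript probe sets, Tsc22d3 and Igll1, called at -0.97 and -1.32, were at 0.07 and 0.03. The other sign changes were in receptors that were not called. With all probe sets averaged, Vdr was at -0.052 and Ppard at 0.0033. With sex as a term or without the arrays with Xist, Nr1i3 was at -0.087, Nr2f2 at 0.057, Rarb at -0.04, Vdr at -0.31 and Ppard at 0.15. Leaving out 1 array moved Nr2f1 from -0.055 to 0.14, Rarb from -0.077 to 0.16, Rarg from 0.00 to 0.25, Vdr from -0.16 to 0.28, Ppard from -0.11 to 0.068, Nr4a3 from -0.175 to 0.005, Nr2c2 from -0.0033 to 0.087 and Hnf4g from -0.12 to 0.027.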
